A study of Mus musculus with 6 samples.

Results

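MiR-21a was followed through libraries of small RNA labelled as extracellular vesicle RNA of melan-alpha cells, an immortalised line of pigmented mouse melanocytes. The members were the rows of the deposited table that carry a mouse name and equal miR-21a once the species prefix, the arm and any suffix for end bases are removed. 2 of 1560 rows met this rule, 1 for each arm of the precursor: miR-21a-5p and a form of miR-21a-3p that lacks 1 base at its 3′ end. Of the 6 libraries, 3 were controls and 3 came from cells infected with a lentivirus carrying mouse Mitf, and all cells grew in RPMI 1640 with 10% FBS. MITF, a transcription factor, is known as the main driver of the pigment cell program, and the design asks which vesicle microRNAs differ when it is overexpressed. The labels mention the virus for the overexpression cells only and do not say whether the controls received an empty one. They also do not say whether replicates were separate cultures, so p-values measure the spread between these libraries, which may be technical. The protocol in the labels describes collecting cells and does not describe isolating vesicles, and the assay does not measure Mitf itself.

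MicroRNAs are cut from a hairpin precursor, and either arm of the hairpin can yield a mature strand of about the same size that guides silencing complexes to messenger RNAs through its seed, bases 2 to 8. MiR-21 is abundant in many cultured cells and raised in many tumours, melanoma included, and is known for repressing the tumour suppressor Pdcd4. Its gene is known to respond to the transcription factors AP-1, STAT3 and NF-kB, and the processing of its precursor to SMAD proteins of the TGF-beta pathway. It is also a common cargo of vesicles released from cells.

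The sequences of both rows are shown because they decide what the counts can and cannot tell apart. Seed bases are in capitals, the miR-21a lines are as the deposited table gives them, and the miR-21b and miR-21c lines are from RefSeq on GRCm38.p6.
miR-21a-5p: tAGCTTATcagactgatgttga
miR-21a-3p: cAACAGCAgtcgatgggctgt
miR-21b: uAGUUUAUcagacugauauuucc
miR-21c: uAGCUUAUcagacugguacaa

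Both rows matched the RefSeq entries of the gene Mir21a on chromosome 11. On GRCm38.p6 the 5p strand lies at chr11:86584120-86584141 and the 3p strand of the table at chr11:86584083-86584103, both on the minus strand. In GENCODE M21, on GRCm38, the 92-base hairpin, from 86584067 to 86584158, falls in exon 12 of a protein-coding transcript of Vmp1, within its 3′ untranslated region. The submitters' processing notes name mm9, so these positions are from another build than theirs. Counted from the 5′ end of miR-21a-5p, miR-21b differs inside the seed by C4U, whereas miR-21c keeps the seed and first differs by A16G. Of 1679 mature names in RefSeq, 2 share this seed, miR-21a-5p and miR-21c. No mouse row of miR-21b or miR-21c was listed, and miR-21a-5p was the only row of the table with this seed. Neither miR-21a sequence was shared with another row, and all its counts were whole, so no reads were split between miR-21a and another name. None of the 93 cow-named rows or of the rows of other mammals was named miR-21. The mature strand is conserved among mammals, so this row does not separate mouse miR-21 from that of the serum in the medium.

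MiR-21a-5p fell with MITF overexpression. It was counted in 19447, 14308 and 18305 reads in control replicates 1, 2 and 3 and in 7158, 3564 and 5467 reads in overexpression replicates 1, 2 and 3. The microRNA table held 342941 to 475977 reads per control library and 279142 to 448969 per overexpression library. Scaled to CPM, counts relative to the library's total after TMM scaling, the level was 63579, 37299 and 41334 CPM in control replicates 1 to 3 and 16364, 12089 and 15983 CPM in overexpression replicates 1 to 3. The groups did not overlap, and the lowest control stood 2.28-fold above the highest overexpression library. Control replicate 1 was the highest library and overexpression replicate 2 the lowest. The means were 47404 ± 14152 and 14812 ± 2366 CPM (SD, n = 3 each).

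The log2 fold change of miR-21a-5p was -1.68 ± 0.26 (SE), with a mean CPM 3.20-fold lower. Across the 441 tested rows, edgeR's quasi-likelihood test with Benjamini-Hochberg adjustment put its adjusted p at 0.0189. It fell in 3 of 3 overexpression libraries against every control. At a threshold of 0.05, 15.2% of tested rows were called in either direction, 5.22% lower and 9.98% higher. Separation of all libraries by group was seen in 42.4% of tested rows, and in 17.2% with the overexpression libraries lower. Among the 15 mouse-named rows called lower it had the most negative log2 fold change, and over all 23 rows called lower it came after 1 predicted sequence. Its unadjusted p was the smallest of all tested rows. The call was lost without MITF overexpression replicate 3, where the log2 fold change was -1.74 with an adjusted p of 0.0690. With RNA pooled from many vesicles, fewer vesicles that carry miR-21a and fewer copies per vesicle cannot be told apart.

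The counting error of miR-21a-5p was 0.717% to 1.68% of its count, while the coefficient of variation of its CPM was 29.9% among controls and 16.0% among overexpression libraries.

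**Figure D1:**
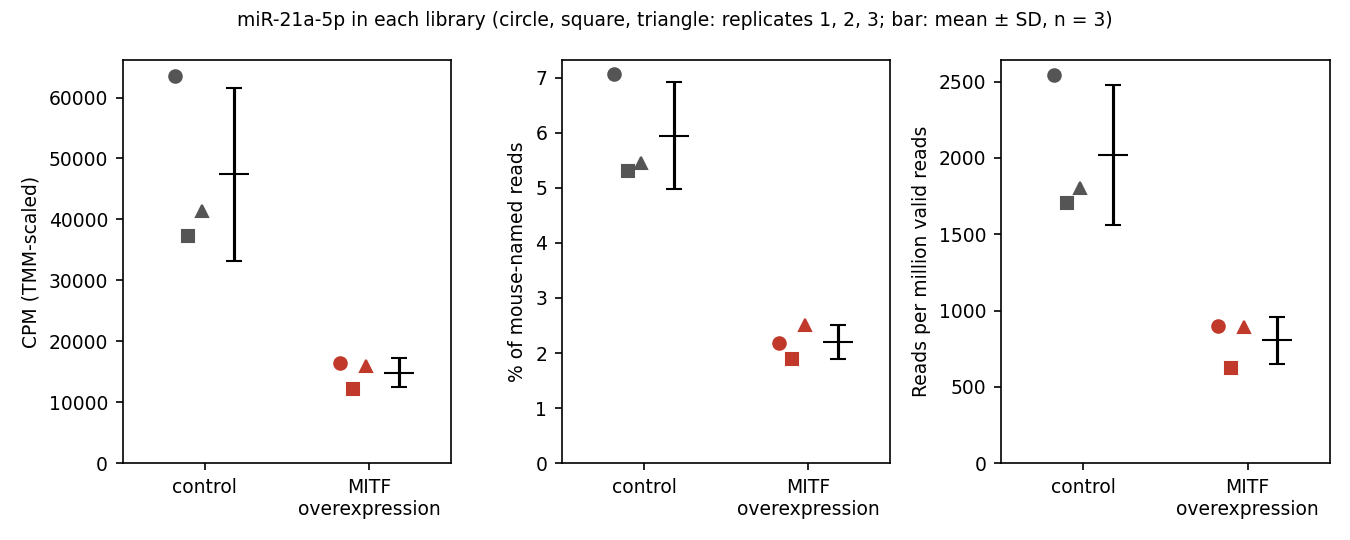
MiR-21a-5p in every library as CPM, as a percent of mouse-named reads and as reads per valid read (scaled to RPM), with the mean and SD of each group (n = 3). In each panel all 3 overexpression libraries lie below all 3 controls, and control replicate 1 is the highest point.

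Shares of a total of reads, taken without a TMM factor, gave the same order of the groups. Such shares still depend on what else makes up the total. MiR-21a-5p made up 7.06%, 5.31% and 5.45% of mouse-named reads in control replicates 1 to 3 and 2.18%, 1.90% and 2.52% in overexpression replicates 1 to 3. These shares were 2.71-fold apart in the mean, at 5.94 ± 0.97% and 2.20 ± 0.31% (SD, n = 3). An exact two-sided permutation test gave p = 0.1, its lower limit with 3 libraries a group. Relative to the reads called valid in the authors' overview, a count taken before reads are named, it stood at 2546, 1707 and 1805 RPM in control libraries and at 897, 626 and 892 RPM in overexpression libraries. This gap was 2.51-fold in the mean, also without overlap.

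Among mouse-named rows, ordered by reads within a library, miR-21a-5p ranked 2, 3 and 2 in control libraries and 13, 14 and 13 in overexpression libraries. Its mean share of mouse-named reads fell by 3.75 percentage points, more than that of any other mouse-named row. The next was miR-30a-5p, a member of a family found in most tissues, whose share went from 6.03% to 4.17%. The largest gain was that of miR-122-5p, which dominates the microRNAs of hepatocytes, from 1.51% to 7.33%. Overexpression replicate 1 held 13.7% and the other 2 libraries 4.73% and 3.58%, so the mean was 4.16% without replicate 1. With the reads of miR-122-5p left out of the total, the share of miR-21a-5p fell by 3.66 percentage points.

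**Figure D2:**
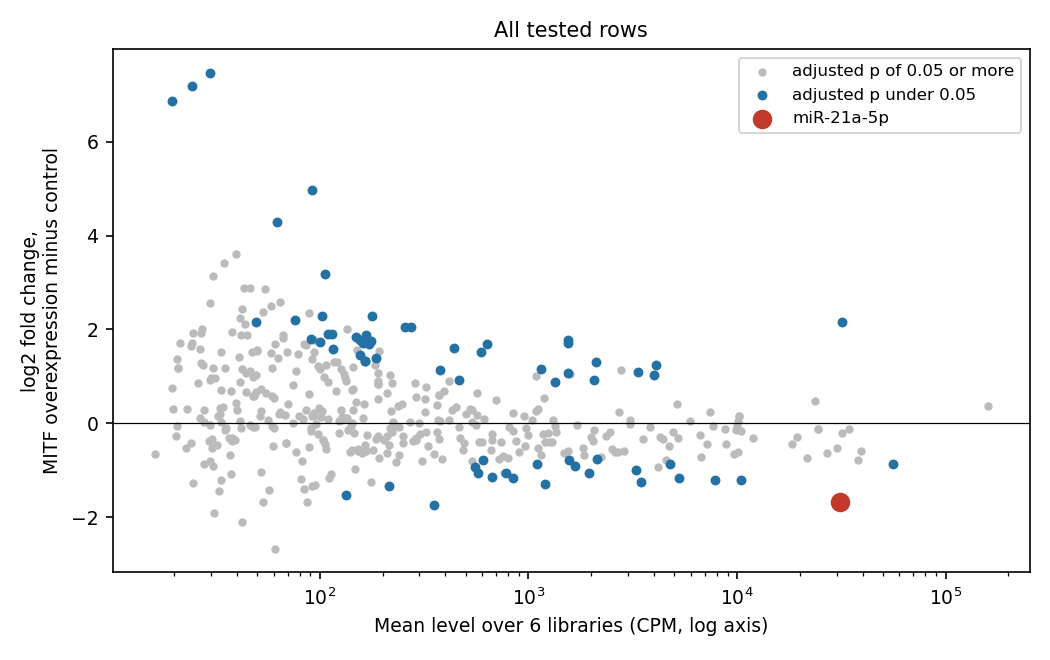
Log2 fold change of every tested row against its mean level over the 6 libraries in CPM on a log axis, with the 67 rows past an adjusted p of 0.05 in blue and miR-21a-5p in red. MiR-21a-5p, at -1.68, is among the most abundant rows and near the bottom of the plot.

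MiR-21a-5p was then set against the 10 other mouse-named rows with the highest mean level over all 6 libraries, as a ratio of reads within each library. These rows were miR-146a-5p, miR-30a-5p, miR-30d-5p, miR-122-5p, miR-423-5p and 5 rows of the let-7 family, a widespread family that slows growth. The let-7c-5p row and a let-7a-5p row with 1 substitution have the same sequence and equal counts, so they are not independent. For 10 of 10 rows the ratios of the groups did not overlap and were lower with MITF overexpression. All 10 ratios share the reads of miR-21a-5p as numerator, so none is independent of the others. The count thus largely restates the fall of miR-21a-5p, and shows that it does not hinge on which of these rows is the reference. Against miR-146a-5p, an inhibitor of inflammatory signalling that NF-kB induces, the ratio was 1.19, 0.913 and 0.877 in controls and 0.613, 0.326 and 0.527 with MITF overexpression. Controls thus held about as many reads of miR-21a-5p as of miR-146a-5p, and overexpression libraries held fewer. Against miR-30a-5p the ratio was 0.962, 0.933 and 1.08 in controls and 0.598, 0.486 and 0.506 with MITF overexpression. Against let-7g-5p it was 1.61, 1.19 and 1.13 in controls and 0.643, 0.525 and 0.620 with MITF overexpression. Each of these ratios fell below every control value in all 3 overexpression libraries.

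Against the geometric mean of all 10 rows, the log2 ratio of miR-21a-5p was 0.91, 0.66 and 0.46 in controls and -0.85, -1.20 and -0.71 with MITF overexpression. The difference was -1.59 on the log2 scale, with an exact two-sided permutation p of 0.1. MiR-21a-5p was thus above the average of these rows in every control and below it in every overexpression library. The smallest of the 10 differences was -0.91, against miR-30a-5p, and the largest -3.52, against miR-122-5p, followed by -2.14, against miR-423-5p. The rows were ranked over both groups, so a high level with overexpression helped a row into the 10. MiR-122-5p had a mean of 11713 CPM in controls and 51936 CPM with overexpression, and miR-423-5p of 19721 and 27539 CPM. Both enlarged the difference of -1.59. MiR-122-5p passed the test itself, in the other direction, with a log2 fold change of 2.15, and of 1.15 without overexpression replicate 1.

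**Figure D3:**
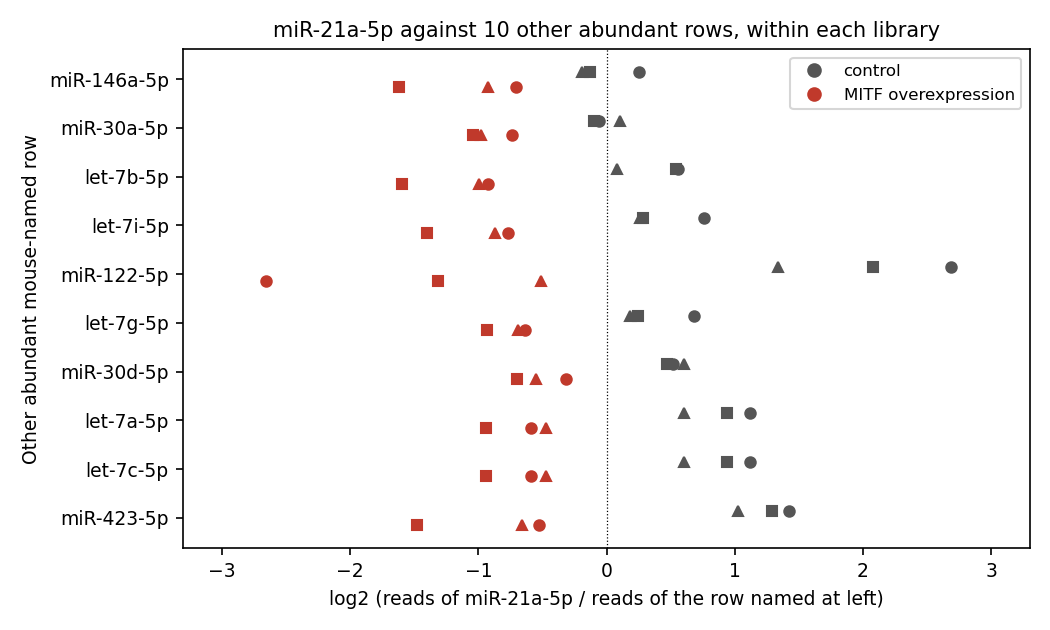
Log2 ratio of the reads of miR-21a-5p to those of 10 other abundant mouse-named rows in each library, controls in grey and MITF overexpression in red, with circle, square and triangle for replicates 1, 2 and 3. For every row the red points lie to the left of the grey points, from -0.91 apart in the mean for miR-30a-5p to -3.52 for miR-122-5p.

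The 3p strand, the arm of miR-21 that is usually discarded after processing, was close to absent. It was listed with 16 reads in control replicate 3, 9 reads in overexpression replicate 2 and 0 in the other 4 libraries, and did not pass the filter on low counts. Its share of miR-21a reads was 0.0873% in control replicate 3, with an exact 95% interval of 0.0499% to 0.142%, and 0.252% in overexpression replicate 2, with an interval of 0.115% to 0.478%. The counts of 0 allow a share of up to 0.0154% and 0.0210% in control replicates 1 and 2, and of up to 0.0419% and 0.0549% in overexpression replicates 1 and 3. These intervals and limits cover counting error only. They take a listed 0 as no reads, which was not tested, and whether the row pools other end variants of the strand is not stated. The groups overlapped, and a difference in arm use was not detectable at this depth, with an exact two-sided permutation p of 1. Over all 6 libraries the 3p strand held 0.0366% of miR-21a reads. Of 63 mouse microRNAs with both arms listed and at least 1000 reads in all, 3 had a smaller share in their minor arm, and the median was 3.10%.

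The authors' deposited table lists miR-21a-5p with a ratio of group means of 0.320 and an unadjusted p of 0.0582, above 0.05 where edgeR's test passed, and the 3p row with 0.837 and 0.907. Normalized values of miR-21a-5p in the authors' deposited table were 22830, 13094 and 14638 in controls and 5779, 4241 and 6170 with MITF overexpression, again without overlap.

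Rows whose pattern over the 6 libraries was most like that of miR-21a-5p were ranked by Pearson's r of log2 CPM over 240 tested mouse-named rows with a mean of at least 50 CPM. The points share their libraries and scaling factors and fall into the study's 2 groups, so r is given as a description, together with r after removing the group means. The median r over the 240 rows was 0.23. The highest was that of miR-140-5p, a microRNA of cartilage encoded in the gene Wwp2, with r of 0.993 and 0.963 within groups. Its level was 235, 177 and 183 CPM in controls and 77.7, 57.7 and 70.2 CPM with MITF overexpression, and it fell 2.87-fold with an adjusted p of 0.0221 by edgeR. As with miR-21a-5p, control replicate 1 was the highest library and overexpression replicate 2 the lowest. MiR-532-5p followed with r of 0.990, let-7g-5p with 0.985, miR-20a-5p with 0.982 and miR-106b-3p with 0.981. Within groups, r was 0.892 for miR-532-5p, 0.900 for let-7g-5p and 0.842 for miR-106b-3p. MiR-20a-5p, a member of the growth-promoting miR-17-92 cluster, had the highest r within groups of these 5, at 0.990. Of the 5, let-7g-5p missed the threshold, at an adjusted p of 0.0812, and the other 4 fell, beside 5.22% of all tested rows called lower. The 5 were picked for likeness to a row that fell, in these same libraries, so this count largely follows from the choice. The lowest r were those of miR-127-3p, from the imprinted Dlk1-Dio3 cluster, at -0.976, miR-125b-5p at -0.971 and miR-130b-3p at -0.959. Within groups, r was -0.837, -0.771 and -0.773 for these rows in that order. MiR-127-3p rose 3.29-fold, and the log2 fold changes of miR-125b-5p and miR-130b-3p were 0.55 and 0.78 with adjusted p of 0.0889 and 0.0723.

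MicroRNAs known to be induced by AP-1, STAT3 or NF-kB, the inputs known for the miR-21 gene, had 0 of 10 tested rows called by edgeR besides miR-21a-5p. With 5.22% of all tested rows called lower, a count of 0 in 10 is near the background. The count was 2 with DESeq2's Wald test or with the most abundant row left out of edgeR's fit, both times miR-146a-5p and miR-31-5p as lower. Their median log2 fold change was -0.52, beside 0.08 over all tested rows and -0.07 over mouse-named tested rows, and 8 of the 10 were negative. MiR-146a-5p stood at 53356, 40852 and 47158 CPM in controls and 26706, 37068 and 30345 CPM with MITF overexpression. Its groups did not overlap, yet a log2 fold change of -0.59 missed the threshold (adjusted p 0.0805 by edgeR), which it passed at 0.0475 with the most abundant row left out and at 0.0207 with DESeq2. The same held for miR-31-5p at -0.53 (adjusted p 0.0889 by edgeR, and 0.0443 and 0.0133 under those 2 settings). MiR-221-3p, which targets the cell cycle inhibitor p27, also had groups without overlap, at -0.61 (adjusted p 0.128 by edgeR). It was not called under any setting. The range over the 10 rows was -0.67 to 0.56, beside -1.68 for miR-21a-5p.

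Among microRNAs commonly called oncogenic, 3 of 20 tested rows besides miR-21a-5p fell and 1 rose, beside 5.22% and 9.98% of all tested rows, and the median log2 fold change was -0.45. The number that fell was 0 to 5 over the alternatives. MiR-93-5p fell 2.39-fold, miR-20a-5p 2.23-fold and miR-106b-3p 1.86-fold, with adjusted p of 0.0211, 0.0221 and 0.0236 by edgeR. All 3 are from the miR-17-92 cluster or its paralog, which supply much of this list, so their shared origin partly follows from the choice. The other tested rows of these clusters on the list were not called in the main fit. They ran from -1.07 for miR-19a-3p to 0.996 for miR-17-3p on the log2 scale. MiR-106b-5p, the other arm of miR-106b, was at -0.39 (adjusted p 0.406 by edgeR). MiR-214-3p rose 3.36-fold, from 88.3, 62.6 and 74.5 CPM in controls to 311, 190 and 254 CPM with MITF overexpression. The abundant miR-10b-5p, miR-25-3p and miR-92a-3p missed the threshold, at -0.30, -0.66 and -0.06 on the log2 scale. Under other settings the sign of miR-10b-5p and miR-92a-3p changed.

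Among microRNAs known to be raised by TGF-beta or SMAD proteins, 0 of 14 tested rows besides miR-21a-5p fell and 3 rose, and the median log2 fold change was 0.27. Over all tested rows 5.22% fell, so 0 of 14 is near the background, and 9.98% rose. With DESeq2's Wald test 3 fell, miR-23a-3p, miR-24-3p and miR-27a-3p, and the same 3 rose. That test also called more rows of the whole table in each direction than edgeR's, as given below. MiR-27a-3p, at -0.72 (adjusted p 0.0568 by edgeR) and without overlap, was called lower under further settings. These were the most abundant row left out, mouse-named rows alone and the fit without MITF overexpression replicate 1. Those that rose were miR-214-3p, miR-145a-5p and miR-199a-5p, which are abundant in fibroblasts and smooth muscle. MiR-145a-5p had 19.6, 86.0 and 104 CPM in controls and 320, 319 and 152 CPM with MITF overexpression, without overlap. The abundant miR-24-3p and miR-23a-3p missed the threshold at -0.43 (adjusted p 0.155) and -0.44 (adjusted p 0.145) on the log2 scale. MiR-214, miR-145a and miR-199a are also, with miR-143, the 4 fibroblast and mesenchymal markers used here, all 4 above 0. The summed level of these markers was 4426 to 5130 CPM in controls and 6136 to 7780 CPM with MITF overexpression. Most of it was miR-143-3p, at 4145 to 4927 CPM in controls and 5431 to 6410 CPM with MITF overexpression. That row was not called, at a log2 fold change of 0.41 (adjusted p 0.155 by edgeR). The part of these markers in the result for miR-21a was not tested.

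MiR-21a-5p carries CAGAC, the element that SMAD proteins are known to bind in its precursor, at bases 9 to 13. CAGAC was searched on the strand of each mature sequence and was found in 6 of 506 mouse-named rows, or 1.19%, and in 1.67% of RefSeq's mature names. 4 of the 6 rows were tested. MiR-21a-5p and miR-421-3p fell, and miR-214-3p and miR-199a-5p rose. All 4 were thus called, beside 15.2% of all tested rows, and all 4 had groups without overlap, beside 42.4%. MiR-421-3p was not called with total-count scaling or scaling by valid reads, nor miR-199a-5p with limma. With the replicate numbers as a block, miR-21a-5p alone of the 4 was called. CAGAC is in capitals below, in the sequences of the deposited rows, for the 3 whose name is in RefSeq.
miR-21a-5p: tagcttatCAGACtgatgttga
miR-214-3p: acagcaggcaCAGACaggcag
miR-199a-5p: cccagtgttCAGACtacctgttc

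MiR-421-3p went from 798, 600 and 784 CPM to 450, 285 and 409 CPM, without overlap, a log2 fold change of -0.93 (adjusted p 0.0348 by edgeR). MiR-199a-5p, encoded on chromosomes 1 and 9, had 13.1, 31.3 and 18.1 CPM in controls and 457, 64.4 and 49.7 CPM with MITF overexpression. Its call rests on few reads and on overexpression replicate 1, without which its log2 fold change was 1.41, in place of 3.18, and its adjusted p 0.355.

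**Figure D4:**
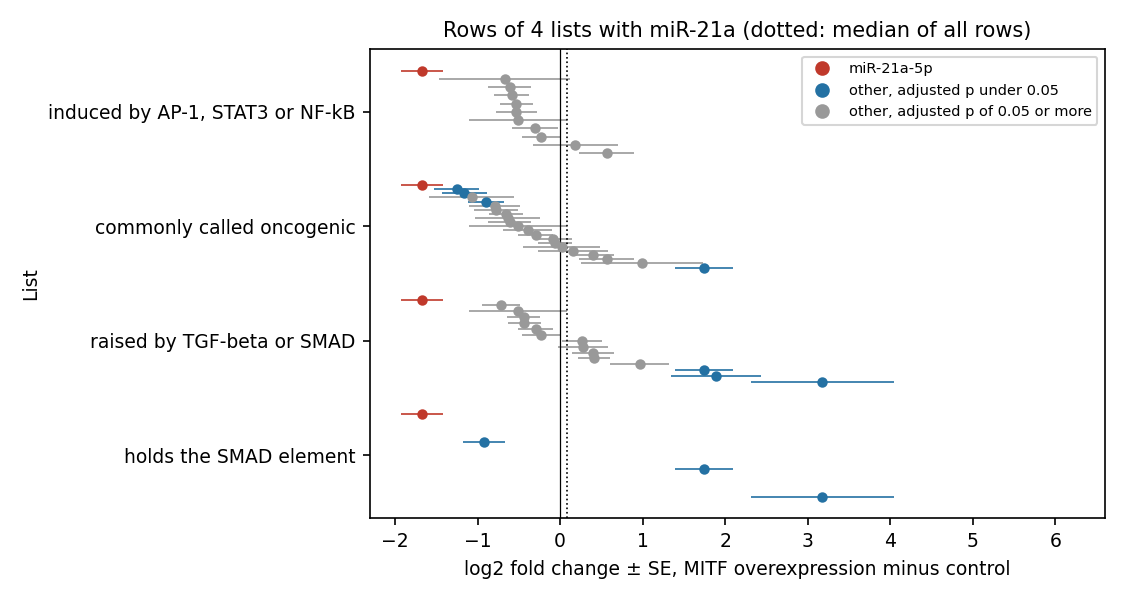
Log2 fold change with SE of each tested row of the 4 lists, miR-21a-5p in red, other rows past an adjusted p of 0.05 in blue and the rest in grey. MiR-21a-5p, at -1.68, is the lowest row of each list, and the rows that hold CAGAC lie on both sides of 0.

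Calls of the named rows differed in how far they rested on single libraries. 12 named rows were called, and leaving out each of the 6 libraries in turn removed the call of miR-21a-5p and of miR-127-3p in 1 fit each, that without overexpression replicate 3. The other 10 lost it in 2 to 6 fits. No row of the table was called without overexpression replicate 3, so the loss in that fit was common to all 12 and not particular to any row. The calls of miR-20a-5p and miR-93-5p were lost without overexpression replicates 2 or 3, and that of miR-214-3p without control replicate 2 or overexpression replicate 3. Those of miR-532-5p, miR-106b-3p and miR-421-3p were lost in every fit but that without overexpression replicate 1. That of miR-140-5p was lost without controls 2 or 3 or overexpression replicates 2 or 3. That of miR-145a-5p was lost without control 2 or any 1 overexpression library, that of miR-122-5p without control 2 or overexpression replicates 2 or 3, and that of miR-199a-5p in all 6. Their highest adjusted p without 1 library were 0.0899 for miR-20a-5p, miR-93-5p and miR-106b-3p, 0.0713 for miR-214-3p, 0.0905 for miR-532-5p, 0.121 for miR-421-3p, 0.0834 for miR-140-5p, 0.123 for miR-145a-5p and 0.0810 for miR-122-5p.

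The melanocyte label was checked on miR-211 and miR-204, which were both listed, with a summed level of 1976 to 2771 CPM in controls and 4565 to 5946 CPM with MITF overexpression, and 3 of their 3 tested rows were higher. Of 20 markers of other cell types, 18 were above 0, with miR-124 and miR-486a at 0. Their tested rows were called higher in 8 of 18 cases and lower in none. Over all tested rows 9.98% were called higher and 5.22% lower, so none lower in 18 is near the background. Among the 8, the calls of miR-122-5p, miR-214-3p, miR-145a-5p and miR-199a-5p depended on single libraries, as given above. Without overexpression replicate 3 no row of the table was called, so the rest of the 8 were lost in that fit too. How far the rest depended on the remaining libraries is not given here. The summed level of the red blood cell markers was 1357 to 2052 CPM in controls and 3786 to 7135 CPM with MITF overexpression, and that of liver 8848 to 16385 and 22727 to 102987 CPM. White blood cell markers likewise stood at 288 to 511 and 997 to 1561 CPM. Neural markers, here miR-9 alone, were lower without overlap, at 1186 to 1589 CPM in controls and 651 to 971 CPM with MITF overexpression. Neither arm of miR-9 was called, with adjusted p by edgeR of 0.0568 for miR-9-5p and 0.484 for miR-9-3p. Lower without overlap were 17.2% of all tested rows. The groups overlapped for muscle markers, at 5.21 to 1235 and 10.2 to 18.3 CPM, endothelial markers, at 2233 to 2409 and 1825 to 9080 CPM, and keratinocyte markers, at 11.3 to 134 and 43.9 to 193 CPM. The part of these in the result for miR-21a-5p was not tested, except for miR-122-5p as given above.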

How the data were processed

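Per the file headers, the authors deposited 1 table with estimated counts of reads per sequence and library, and a normalized signal, which on checking was each estimated count over a constant of its library. They also deposited group means, their ratio as a fold change, its log2 and an unadjusted p-value from a t-test. A further table gives the count of reads per class, after adapter and length filtering to 18 to 26 bases, per the file headers. Raw reads numbered 10030115 to 16275268 per library, and the microRNA table held 4.49% to 5.63% of the reads called valid. The build was mm9 per the submitters' processing notes, and no aligner or counter is named in the sources used here. 4 lines of the table were empty and were not analysed here.

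Rounded estimated counts of all 6 libraries went into edgeR 4.0.16 (R 4.3.3), with TMM scaling, filterByExpr at a minimum count of 10, the quasi-likelihood test with group as the only term and Benjamini-Hochberg adjustment over all 441 tested rows. The SE was taken from the test statistic. Log2 CPM used a prior count of 2. DESeq2 1.42.0 and limma 3.58.1 were alternatives, and the fit was checked on simulated counts. Two-sided exact permutation tests used scipy 1.17.1. The members and lists were chosen with earlier results of these data known. Rows named are both miR-21a rows, the 10 other most abundant mouse rows, the 5 most and 3 least alike in pattern, and called and up to 4 abundant list members. MiR-421-3p was named as a row that holds CAGAC.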

Additional observations from a re-analysis of the deposited data

How the results depend on the processing

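The log2 fold change of miR-21a-5p was negative in all 16 alternatives, from -1.79 to -1.33, with adjusted p from 2.91e-08 to 0.0690. It passed the threshold in 10 of 10 alternatives that kept all libraries and in 5 of 6 that left 1 out, where values ran from -1.79 to -1.44. The value of -1.74 without MITF overexpression replicate 3 missed it. Scaling by valid reads, chosen after seeing the data, shifted the median of all tested rows by 0.32 and total-count scaling by 0.16. Relative to that median miR-21a-5p stood at -1.73 and -1.74, against -1.76.

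Counts of called rows moved more. With all libraries there were 44 higher and 23 lower. DESeq2's Wald test gave 67 and 43, mouse-named rows alone 26 higher, the most abundant row left out 37 lower, total-count scaling 15 lower, and scaling by valid reads 67 and 5. Lower calls made up 34.3% of calls, 19.5% with total-count scaling, 6.94% by valid reads and 45.7% without the most abundant row. With 1 library left out, higher calls ran from 0 to 41 and lower calls from 0 to 23. Both were 0 without MITF overexpression replicate 3, where 135 rows had an unadjusted p under 0.05 by edgeR. As a replicate block, the numbers in the titles left 1 higher and 1 lower row, the latter miR-21a-5p, with an adjusted p of 0.0499. Same-numbered libraries did not deviate together, with r of -0.05, 0.04 and -0.01.

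The loss of share of mouse-named reads ran from -4.06 to -3.19 percentage points with 1 library left out, and the log2 ratio to the 10 rows from -1.70 to -1.45. The 3p share differed by 0.0549 percentage points, from -0.0291 without MITF overexpression replicate 2, where its direction turned, to 0.0968. The 3p row was in 5 alternative fits, from -0.95 to 0.25 on the log2 scale, and was not called in any, with a lowest adjusted p of 0.811. The median of the rows that hold CAGAC, miR-21a-5p included, was 0.41, and 2.43 with no filter on low counts, where 2 more rows entered. Without miR-21a-5p it was 1.75 over 3 tested rows in the main fit. MiR-10b-5p turned to 0.043 when scaled by valid reads. MiR-92a-3p turned to 0.11 with total-count scaling, 0.28 by valid reads, and 0.016 and 0.093 without control replicate 1 or MITF overexpression replicate 2, in a range of -0.17 to 0.093 with 1 library left out. The cause of these changes was not tested. Of 400 alternative values of the 25 other named rows, 317 kept their direction and side of the threshold.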
